A study of Malus hupehensis with 9 samples.

Results

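In phloem of 3 apple rootstocks at bud break, 200 of the 39951 gene identifiers measured, or 0.501%, were chosen by their measured levels as the most abundant transcripts whose rootstock means lay close together. The choice used 8 of the 9 libraries, leaving out A1d replicate 1. The means of log2(FPKM + 1) of the 3 rootstocks had to span less than 0.5, where FPKM counts fragments per kilobase of a gene, scaled to the library total. That held for 21503 identifiers at any level. These were ranked by their lowest FPKM over the 8 libraries, and the first 200 were kept. The 219 identifiers from MD10G1170000 to MD10G1199999 were left out.

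The rootstocks were A1d, QZ1 and WT. A1d is a mutant of Malus hupehensis with a partial loss of the response to gibberellin (GA), a hormone of shoot growth. QZ1 is a columnar hybrid, with Malus hupehensis Rehd. as mother and the columnar line CO (Malus × domestica Borkh.) as father, so part of its genome comes from another species. WT is Malus hupehensis, called PYTC in the sample titles. Each had 3 replicates. Whether these were separate trees is not clear from the labels, so p-values reflect only how far these libraries spread, and that spread could be technical.

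Phloem is the living conducting tissue of the bark. Its sieve elements carry sugars and lose their nuclei, and companion cells beside them supply their proteins. In plant tissues, transcripts that are both abundant and even between samples often belong to basic tasks of the cell such as protein synthesis, protein turnover, the cytoskeleton and energy metabolism, and genes of this kind serve as internal standards in expression studies. The file lists identifiers without gene names and no annotation was used here. No role is therefore given to any of the 200 genes, and the tissue label was not checked against marker genes. In whole tissue, fewer cells of a type and less RNA per cell cannot be told apart.

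The libraries held 15684510 to 18022986 reads. A1d replicate 1 had the lowest total. It had 18107 genes without a read, against 7183 to 9029 such genes elsewhere, and its FPKM summed to 517127, against 635106 to 662372. The calls between rootstocks are given with and without it below. WT replicate 1 also stood apart among the 200 genes, as described with their spread.

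The 200 genes were ranked by their level, so the levels are a description. Their mean over the 8 libraries ran from 123 to 4615 FPKM, with a median of 211. Only 5 averaged at least 1000 FPKM and 16 at least 500, while 90 averaged under 200. Together they held 9.16 to 10.3% of the summed FPKM of each of the 8 libraries, and 6.94 to 7.93% of the reads. In A1d replicate 1 those shares were 7.59% and 5.55%. The last genes inside the rank limit were MD11G1082400 and MD01G1050800, with lowest values of 107.8 and 107.9 FPKM. The first ones outside were MD14G1226700 and MD11G1169900, with 107.5 and 107.2 FPKM. At the span limit, MD12G1199200 and MD00G1130900 lay just inside, at 0.499 and 0.492, and MD14G1107600 and MD07G1199300 just outside, at 0.501 and 0.502. Beyond the span limit were 206 genes with a lowest value as high as that of the 200, and 11 of them matched or exceeded that of the tenth gene.

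The most abundant was MD13G1161400. It had 2696, 4182 and 4468 FPKM in A1d replicates 1, 2 and 3, 5101, 5011 and 6353 FPKM in QZ1, and 3403, 3953 and 4446 FPKM in WT. Its QZ1 libraries were its 3 highest, and A1d replicate 1 was below all the others. MD15G1428700 came next, with 501, 3653 and 2396 FPKM in A1d, 3391, 2589 and 3553 FPKM in QZ1, and 5352, 2320.2 and 1889 FPKM in WT. Here WT replicate 1 was the highest library and A1d replicate 1 was far below the rest. MD13G1161400 was above MD15G1428700 in 7 of the 8 libraries, the exception being WT replicate 1, and MD15G1428700 was above the gene that followed, MD17G1032200, in 8 of 8.

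MD17G1032200 was among the most even. Its values were 910.1, 1133 and 1083 FPKM in A1d, 1146, 1241 and 1167 FPKM in QZ1, and 1249.7, 1141 and 1361 FPKM in WT. The highest of its 8 libraries was 1.26 times the lowest. QZ1 and WT overlapped, and A1d replicates 2 and 3 lay just below both. MD03G1295100 had 271, 1529.8 and 1413 FPKM in A1d, 1567, 1542 and 1469 FPKM in QZ1, and 1784, 939 and 1046 FPKM in WT. MD08G1004500 had 760.1, 1468 and 1178 FPKM in A1d, 1719, 1403 and 1057 FPKM in QZ1, and 841 FPKM in WT replicate 1 beside 1578 and 1535 FPKM in WT replicates 2 and 3. These 3 genes overlapped in level across the 8 libraries, so their order is not set beyond the spread of the libraries.

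The next 5 genes averaged 650 to 970 FPKM over the 8 libraries. MD05G1341400 averaged 990 FPKM in A1d replicates 2 and 3, 806 ± 75.6 FPKM in QZ1 and 929 ± 112 FPKM in WT (SD, n = 3 in QZ1 and WT). MD02G1157800 averaged 1022 FPKM in A1d replicates 2 and 3, 786 ± 20.5 FPKM in QZ1 and 1119 ± 588 FPKM in WT, where replicate 1 had 1794 FPKM against 844 and 718 in replicates 2 and 3. For MD07G1062300 the averages were 947 FPKM in A1d replicates 2 and 3, 993 ± 131 FPKM in QZ1 and 769 ± 139 FPKM in WT. All 3 genes were lower in A1d replicate 1 than in any other library, at 456, 696 and 594 FPKM.

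MD04G1176600 averaged 759 FPKM in A1d replicates 2 and 3, 779 ± 218 FPKM in QZ1 and 737 ± 109 FPKM in WT, and had 238 FPKM in A1d replicate 1. MD11G1131300, the tenth, was even in all 9 libraries. It had 601, 683 and 645 FPKM in A1d, 623, 758 and 624 FPKM in QZ1, and 671, 617 and 576 FPKM in WT. It was the only one of the first 10 whose value in A1d replicate 1 lay inside the range of the other 8 libraries, and the other 9 lay below that range.

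**Figure D1:**
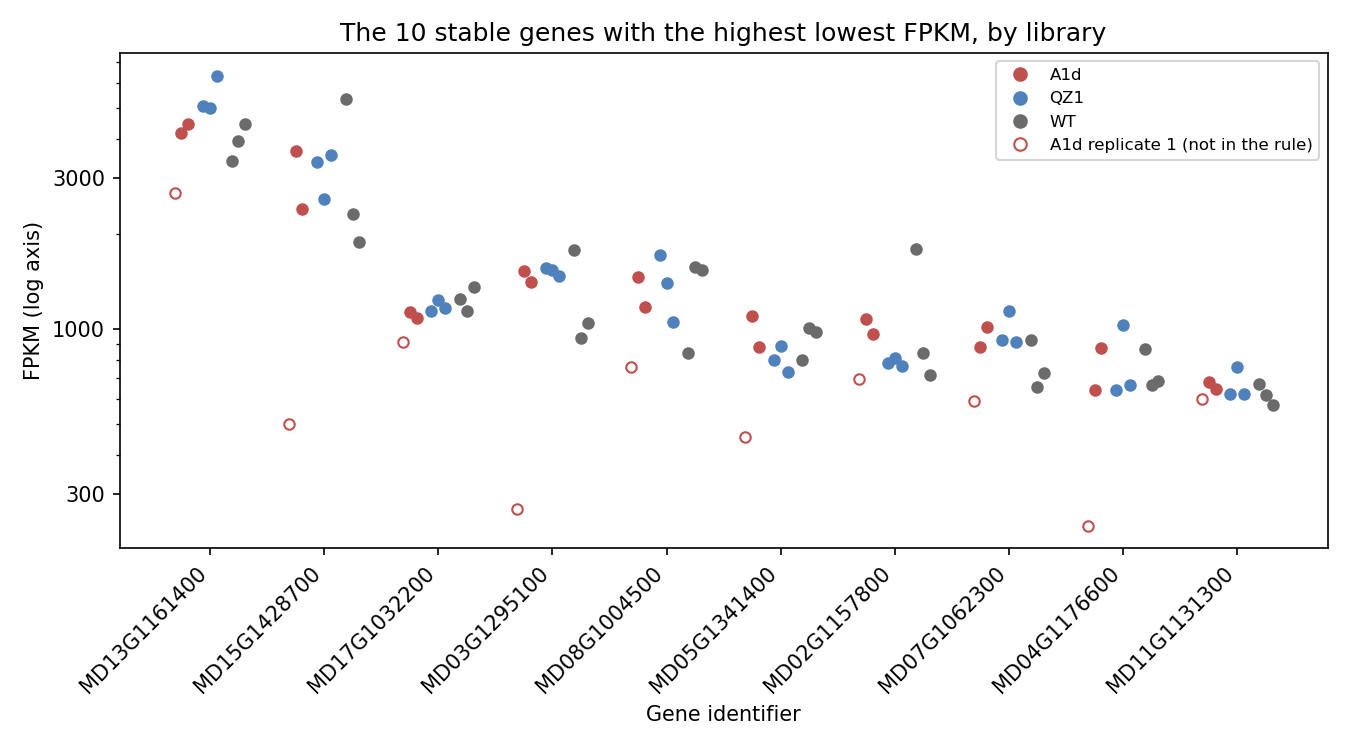
FPKM (log axis) of the 10 genes with the highest lowest value, 1 point per library, with A1d, QZ1 and WT side by side for each gene. The open points are A1d replicate 1, which lies below the other 8 libraries in 9 of the 10 genes.

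The spread inside rootstocks is a description too, since the ranking by the lowest of the same 8 libraries passed over genes with a low library. The SD within rootstocks, pooled over the 8 libraries on the log2(FPKM + 1) scale, had a median of 0.19 over the 200 genes, and ran from 0.05 to 0.59. The highest of the 8 libraries was a median of 1.60 times the lowest. It was under 1.5 times the lowest in 75 of the genes and at least 2 times in 37. Counting error was small beside this, since the genes had a median of 4778 reads in a library and no fewer than 777 in any of the 8 (exact 95% Poisson interval 723 to 834 reads). The within-rootstock SD was 2.21 to 57.1 times the SD that counting alone would give, with a median of 8.70.

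The smallest spread belonged to MD04G1220300, with an SD of 0.05. It had 408 and 412 FPKM in A1d replicates 2 and 3, 399, 420.4 and 414 FPKM in QZ1, and 497, 457 and 464 FPKM in WT, and every WT library was above every library of A1d and QZ1 among these 8. In A1d replicate 1, however, it had 675 FPKM, above all of them. MD14G1246300 followed, with an SD of 0.06. It had 154, 171 and 175 FPKM in A1d, 168, 165 and 167 FPKM in QZ1, and 177, 198 and 176 FPKM in WT. MD03G1194700, also with an SD of 0.06, had 198 and 207 FPKM in A1d replicates 2 and 3, 249, 247 and 235 FPKM in QZ1, and 169, 174 and 189.6 FPKM in WT, with no overlap between rootstocks. A1d replicate 1 had 54.4 FPKM of it. Of these 3 genes with a small spread inside rootstocks, MD14G1246300 stayed near its group in A1d replicate 1. It was 0.17 below the mean of A1d replicates 2 and 3 in log2(FPKM + 1). MD04G1220300 was 0.72 above that mean and MD03G1194700 was 1.88 below (differences of -0.17, 0.72 and -1.88).

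The 3 largest spreads were those of genes with a high value in WT replicate 1. MD08G1236800, with an SD of 0.59, had 552 and 498 FPKM in A1d replicates 2 and 3 and 494, 513 and 547 FPKM in QZ1, but 1052, 425 and 307 FPKM in WT. Its rootstock means nevertheless spanned only 0.02, because WT replicate 1 and WT replicates 2 and 3 lay on opposite sides of the other libraries. MD05G1122100, with an SD of 0.58, had 248 and 259 FPKM in A1d replicates 2 and 3, 201, 206 and 225 FPKM in QZ1, and 411, 217 and 115 FPKM in WT. MD15G1428700, the second most abundant gene, had the next largest SD, 0.56. MD08G1236800 and MD05G1122100 were the 2 genes in which the highest of the 8 libraries was at least 3 times the lowest.

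WT replicate 1 stood apart from the other WT libraries in many of the genes. The median SD in single rootstocks was 0.10 in A1d replicates 2 and 3, 0.13 in QZ1 and 0.21 in WT, and it was 0.11 for WT replicates 2 and 3 alone. The median of an SD from 2 libraries tends to be lower than that of an SD from 3, so these values are not ranked. WT replicate 1 was within 0.5 of the mean of WT replicates 2 and 3 (log2) in 136 of the 200, at least 1 above it in 16, and at least 1 below it in 2. In 45 genes the highest and the lowest of the 8 libraries were both WT, and in 44 of these WT replicate 1 was one of the pair. The order of the genes by FPKM gave Spearman rho of 0.691 and 0.657 between WT replicate 1 and WT replicates 2 and 3. Between WT replicates 2 and 3 rho was 0.899, within QZ1 it was 0.895 to 0.930, and between A1d replicates 2 and 3 it was 0.941. Among the 8 libraries, WT replicate 1 had a higher rho with every A1d and QZ1 library than with the other WT libraries. It was 0.864 and 0.82 with A1d replicates 2 and 3, and 0.809 to 0.825 with QZ1. These rho are across the 200 genes, which were chosen for their level in the same libraries and are not independent replicates. Pearson r of log2(FPKM + 1) with WT replicate 1 was 0.81 and 0.77 for WT replicates 2 and 3 and 0.87 to 0.89 for QZ1. In the 206 genes as abundant with a larger span it was 0.77 and 0.75, and 0.52 to 0.55 for QZ1. For A1d replicates 2 and 3 it was 0.77 and 0.71 there. The rule held the rootstock means of the 200 genes close, so nothing is read from that order. With WT replicate 1 left out of the rule as well, 157 of the 200 genes were chosen again.

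**Figure D2:**
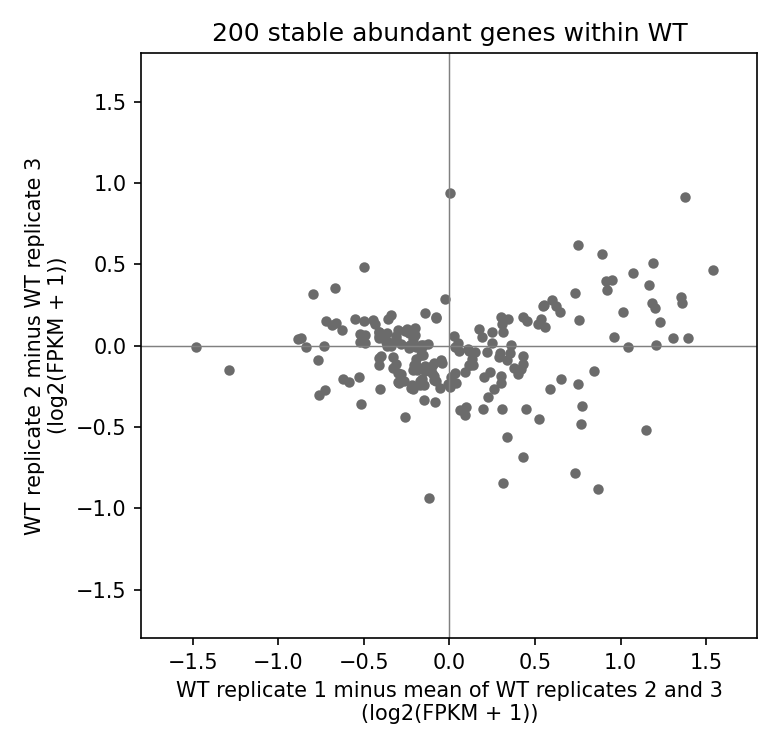
The 200 genes within WT on the log2(FPKM + 1) scale, 1 point per gene: WT replicate 1 minus the mean of WT replicates 2 and 3 (x axis) against WT replicate 2 minus WT replicate 3 (y axis). The points spread farther along the x axis, with 16 genes at 1 or more and 2 at -1 or less.

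A1d replicate 1 was the only library that had no part in choosing the genes. All 200 were detected in it, at 6.91 to 2696 FPKM with a median of 141. Its value lay within the range of the other 8 libraries for 54 genes (27.0%), below that range for 126 (63.0%) and above it for 20 (10%). Among the 206 genes as abundant with a larger span it was within the range for 35.4%, below for 59.7% and above for 4.85%. The rule sought genes high in all 8 other libraries with close means, so part of the share below that range comes from the choice of genes. With 1 library there is no test of these shares.

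In log2(FPKM + 1), A1d replicate 1 was a median of 0.61 below the mean of A1d replicates 2 and 3 over the 200 genes (a difference of -0.61). The middle of the distribution, from the 25th to the 75th percentile, ran from -1.23 to -0.14. Over the 206 genes as abundant with a larger span the median was lower still, at -0.94, with 25th and 75th percentiles of -1.60 and -0.35. Over the 26510 genes with at least 1 FPKM in 3 or more libraries, including the 200, the median was -0.25. A1d replicates 2 and 3 differed from each other by a median of -0.02, with 5th and 95th percentiles of -0.34 and 0.34. After each library was scaled to the same summed FPKM, the median of the 200 was -0.28 and that of all genes 0.00. Quantile normalization gave -0.16 and -0.06. The direction of the median over the 200 genes was the same in these settings. With A1d replicate 1 in the A1d mean, 132 of the 200 genes still spanned less than 0.5, and 131 stayed at or above the 107.8 FPKM of the last gene chosen.

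**Figure D3:**
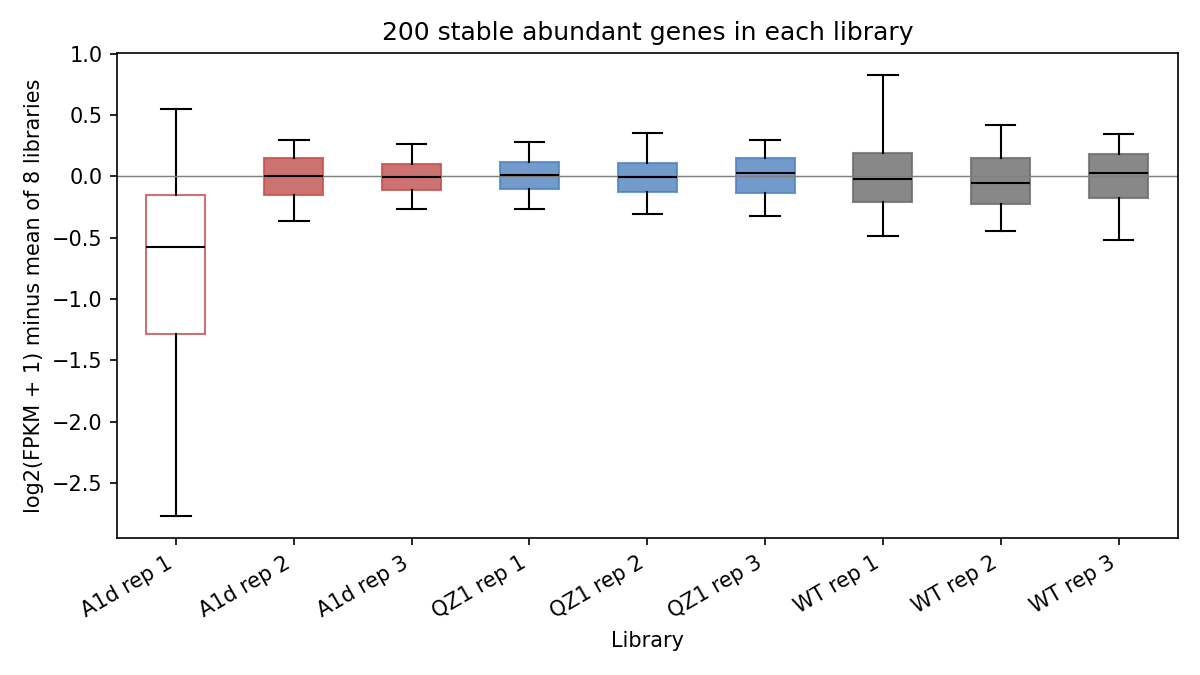
The 200 genes in each library as log2(FPKM + 1) minus their mean over the 8 libraries of the rule. Boxes span the 25th to 75th percentile with the median as a line, and whiskers the 5th to 95th percentile; A1d replicate 1 (open box) has a median of -0.58, and the other 8 have medians between -0.05 and 0.03.

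The departure of A1d replicate 1 went with gene length, which entered the rule only as the divisor in FPKM. The steps of the FPKM values gave lengths of 279 bases for MD17G1084900, the shortest of the 200 genes, to 3655 for MD02G1287500, with a median of 1181.5. That median was 1175 for the 206 genes as abundant and 1538 for the other 26310 of the 26510 genes. The 50 shortest of the 200, with 279 to 864 bases, had a median difference of -1.50 between A1d replicate 1 and the mean of A1d replicates 2 and 3. The difference was -0.66 in the 50 with 867 to 1167 bases, -0.62 in those with 1196 to 1676 bases, and -0.08 in the 50 longest, with 1691 to 3655 bases. From the shortest to the longest 50, A1d replicate 1 lay below the other 8 libraries in 44, 36, 33 and 13 genes. It lay above them in 1, 3, 2 and 14.

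Across the 200 genes, Spearman rho between length and that difference was 0.541. It was 0.519 over the 206 genes as abundant and 0.387 over the other 26310 genes. Mean FPKM had a rho of -0.181 with the difference over the 200 genes. In the other libraries, each set against the rest of its rootstock, rho with length over the 200 genes was -0.239 to 0.246, the upper end being WT replicate 1. These rho share libraries, and length also enters FPKM as the divisor. What in RNA, library or counting moved with length in A1d replicate 1 was not tested.

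**Figure D4:**
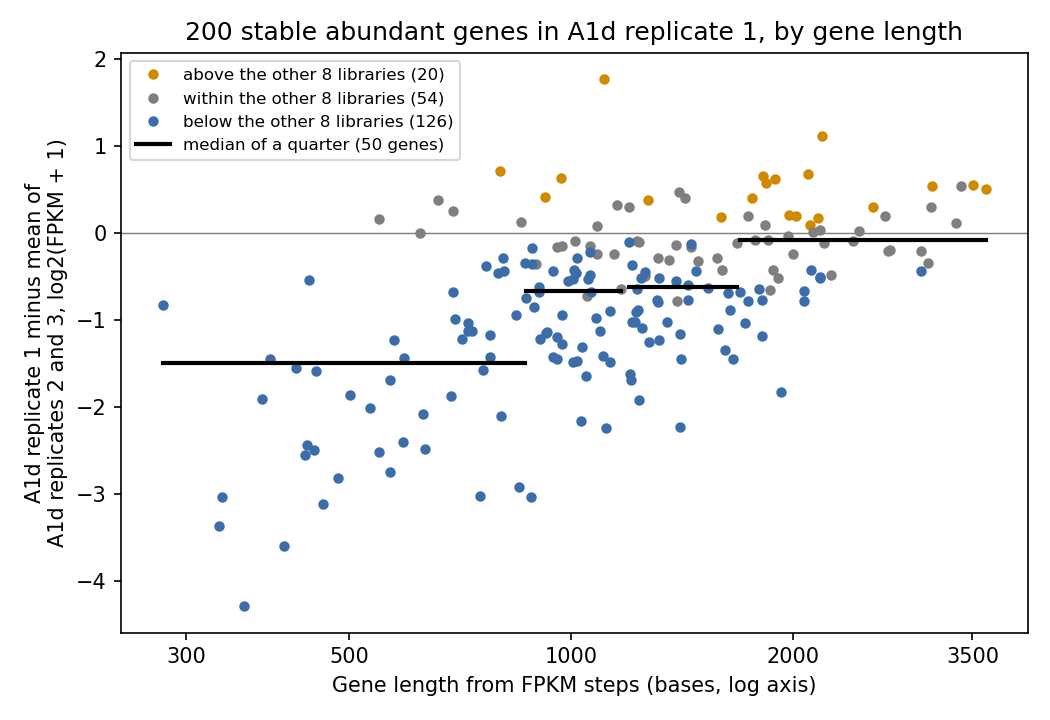
Gene length (bases, log axis) against the difference of A1d replicate 1 from the mean of A1d replicates 2 and 3 in log2(FPKM + 1), 1 point per gene. Colours mark whether A1d replicate 1 lay above (20), within (54) or below (126) the other 8 libraries, and black lines are the medians of 50 genes each, at -1.50, -0.66, -0.62 and -0.08 from short to long.

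MD08G1211600 lay farthest down in A1d replicate 1. It had 6.91 FPKM there, from 39 reads, against 168 and 141 FPKM in A1d replicates 2 and 3, a difference of -4.29 in log2(FPKM + 1). QZ1 had 153, 159 and 179.5 FPKM of it, and WT 269.5, 129.9 and 131 FPKM. MD09G1137700 had 11.9 FPKM in A1d replicate 1, against 151 and 160.2 FPKM in A1d replicates 2 and 3, a difference of -3.60. These genes are 360 and 408 bases long, among the short ones. MD12G1241700 lay farthest up, with 403 FPKM in A1d replicate 1 against 109 and 127 FPKM in A1d replicates 2 and 3, a difference of 1.77. MD05G1153400 had 985 FPKM against 439.6 and 471 FPKM, a difference of 1.11. They have 1106 and 2190 bases. Only 18 of the 200 genes were under 50 FPKM in A1d replicate 1, and 69 were lower by at least 1 log2 unit than the mean of A1d replicates 2 and 3, while 2 were higher by as much. Among the 206 genes as abundant, 102 were lower and 2 higher by at least 1. Among the other 26310 genes, 7099 were lower and 2890 higher.

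The rule held the differences between rootstock means under 0.5 in its 8 libraries, so the calls among the 200 genes are given without a reading. A1d replicate 1 was in the fit but not in the rule. In that fit the largest difference among the 200 genes, regardless of sign, was 1.64 log2 units for A1d against WT. It was 1.52 for QZ1 against A1d and 0.499 for QZ1 against WT. limma was fitted to log2(FPKM + 1) of all 9 libraries and the same 26510 genes. Calls were made where the p adjusted by Benjamini-Hochberg over all of these genes was under 0.05. All 200 genes were among them. For A1d against WT 0 were called, where 3.07% of all genes tested were, and 12 had an unadjusted p under 0.05. QZ1 against WT gave 0 calls, beside 10.2% of all genes, with 2 genes under 0.05 unadjusted. In QZ1 against A1d there were 0, beside 4.29% of all, and 13 under 0.05 unadjusted. The F test among the 3 rootstocks called 0, beside 9.84% of all, and 2 were under 0.05 unadjusted. The median standard error of a difference was 0.28 for the 200 genes and 0.34 for all (without A1d replicate 1, 0.18 and 0.24 for QZ1 against WT, and 0.21 and 0.27 for the other comparisons), so a gene without a call is not shown to be equal between rootstocks. These comparisons share libraries, A1d against WT and QZ1 against WT their WT libraries, and are set side by side only.

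With A1d replicate 1 left out, limma called 2 of the 200 for QZ1 against WT, beside 24.4% of all genes tested, and 1 by the F test, beside 21.4%. Under 0.05 unadjusted were 19 and 8 of the 200. MD14G1039700 had 128, 126 and 126 FPKM in QZ1, against 166, 196 and 171 FPKM in WT, a log2 difference of -0.48 ± 0.13 (SE; limma adjusted p = 0.0283). MD03G1194700, whose values are given above, differed by 0.46 ± 0.13 (SE; limma adjusted p = 0.0389). Among the 8 libraries the groups did not overlap in either gene. A1d against WT and QZ1 against A1d still had 0 calls without that library, beside 4.86% and 5.3% of all genes, with 10 and 6 of the 200 under 0.05 unadjusted. Without both A1d replicate 1 and WT replicate 1, limma called 12 of the 200 for A1d against WT (beside 14.3% of all), 22 for QZ1 against WT (34.4%) and 0 for QZ1 against A1d (9.6%). The F test then called 22, beside 34.0%. Under 0.05 unadjusted were 54, 56 and 30 of the 200 in these comparisons and 56 by the F test. With a weight estimated for each library, limma called 10 for A1d against WT (17.0%), 22 for QZ1 against WT (40.3%), 2 for QZ1 against A1d (15.8%) and 15 by the F test (42.1%), with 34, 43, 30 and 43 under 0.05 unadjusted.

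The other libraries moved these counts as well, although none of them, left out alone, gave a call among the 200. For A1d against WT, the share of all genes called fell to 0.619% and 0.632% without WT replicate 2 or 3, with 3 and 2 of the 200 under 0.05 unadjusted. It was 1.59% without A1d replicate 2, with 27 unadjusted, and 1.6 to 1.9% without 1 QZ1 library, with 5 to 7. Without A1d replicate 3 it was 2.36%, with 27 unadjusted, and without WT replicate 1 it was 3.36%, with 18. For QZ1 against WT, the share was 2.73 to 4.62% without 1 QZ1 library and 3.52% and 3.39% without WT replicate 2 or 3, with at most 1 of the 200 unadjusted. Without WT replicate 1 it was 11.2%, with 8 unadjusted. For QZ1 against A1d, the share was 0.519 to 1.34% without 1 QZ1 library, with 1 or 2 unadjusted, and 1.84% without A1d replicate 2, with 21. It was 5.97% without A1d replicate 3, with 26, and 2.64% and 2.68% without WT replicate 2 or 3, with 6 each. The F test called 2.53 to 4.2% of all genes without 1 QZ1 library and 3.58% and 3.66% without WT replicate 2 or 3, with at most 1 of the 200 unadjusted. It had 13 of the 200 unadjusted without A1d replicate 3 and 9 without WT replicate 1, beside 10.6% of all genes called in each.

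The ranges of the rootstocks overlapped in more of the genes than not for each pair, as they did over all genes tested. As the rule used these contrasts, nothing is read from the counts. In the 8 libraries, every A1d library lay above every WT library in 26 of the 200 genes and below in 26, where 17.0% and 21.5% of all genes tested did so. QZ1 lay wholly above WT in 27 and below in 17, beside 19.0% and 22.2% of all. QZ1 lay wholly above A1d in 43 and below in 41, beside 22.1% and 24.1% of all. In either direction, A1d and WT did not overlap in 26.0% of the 200 genes, QZ1 and WT in 22.0%, and QZ1 and A1d in 42.0%. Over the 26510 genes tested this held for 10206, 10917 and 12240 genes. A1d had 2 libraries here and the others 3.

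The 200 genes were scattered over the genome, as far as their identifiers show. Their form is that of GDDH13 apple gene names, in which the first digits stand for the chromosome, although the file itself says nothing on this. Every chromosome from 1 to 17 held between 8 and 19 of them, with 19 on chromosome 15 and 18 on chromosome 11, and 5 had the number 00, which names no chromosome. Per 1000 genes tested, the chromosomes held 4.73 (chromosome 10) to 11.5 (chromosome 1), and part of chromosome 10 was left out by the rule. Only 10 of the genes were neighbours, in 5 pairs with at most 1 listed identifier between them, beside 10 such pairs among the 206 genes as abundant.

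Some neighbours ran close together in level. MD11G1082300 and MD11G1082400 averaged 209 and 198 FPKM over the 8 libraries, and both were lowest in WT replicate 2, at 116 and 107.8 FPKM. In A1d replicate 1 they parted, with 64.8 FPKM for MD11G1082300 and 182 FPKM for MD11G1082400. MD02G1149700 and MD02G1149800 averaged 129 and 138 FPKM, and had 112 and 223 FPKM in A1d replicate 1. MD10G1145700 and MD10G1145800 averaged 216 and 296 FPKM, MD12G1241700 and MD12G1241800 142 and 232 FPKM, and MD16G1193800 and MD16G1194000 144 and 322 FPKM. Where neighbours overlap or are near-identical copies, the counting could have split reads between them, so their single levels are uncertain.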

How the data were processed

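Per the labels' protocols, RNA was isolated with the mirVana kit and stranded libraries of polyadenylated RNA were built with a TruSeq kit. Trimmomatic, which trims reads, is listed without a role, per the submitters' processing notes. The aligner, counting tool, genome build and annotation were not given in the sources used here. The deposited file holds FPKM computed by the authors, a unit taken from its name. Reads of QZ1, a hybrid, may map differently where its sequence differs.

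The FPKM values of a gene are whole multiples of a step set by its length and the library total. From these steps library totals, lengths and whole reads were computed; 37548 of 37548 genes above 0 came out whole, to within 0.0001 reads and the file's rounding. A unit may be 1 read or 1 pair; "read" stands for both. Recovered reads made up 99.92 to 99.955% of the totals. Intervals cover counting error only, because PCR copies are not independent molecules.

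Group means of log2(FPKM + 1) were fitted with limma 3.58.1 in R 4.3.3, with an intensity trend and all 9 libraries in 1 fit. Fold changes on that scale understate the change of low genes. Python 3.11.15, numpy 2.4.6, pandas 2.3.3 and matplotlib 3.10.9 did the rest. Alternatives were another pseudocount, scalings, filters, span limits, a replicate block and leaving out libraries. Named genes were the 10 with the highest lowest FPKM, the 3 with the smallest and the 3 with the largest within-rootstock SD, the 2 farthest up and the 2 farthest down in A1d replicate 1, those at the limits, called genes and neighbours. The genes and these rules were chosen with earlier results of these data known. Methods were tested on simulated data. For limma these data took their spreads from QZ1 and WT only, so they held no library like A1d replicate 1. Their planted changes were larger than the span limit of the rule.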

Additional observations from a re-analysis of the deposited data

How the results depend on the processing

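The choice of genes kept 152 to 199 of the 200 under a pseudocount of 0.1, span limits of 0.4 and 0.6, scaling to equal sums, median-of-ratios scaling and quantile normalization, and 157 to 189 when 1 of the 8 libraries was left out. With all 9 libraries in the rule it kept 128. The median difference of A1d replicate 1 stayed negative in every setting, at -0.28 with equal sums, -0.16 with quantile normalization and -0.61 to -0.60 without A1d replicate 3 or 2. The median within-rootstock SD was 0.31 with all 9 libraries and 0.13 to 0.20 with 1 of the 8 left out, lowest without WT replicate 1. The counts of called genes were 0 in every planned setting except without A1d replicate 1, where 2 were called for QZ1 against WT and 1 by the F test, so that leaving out 1 library gave 0 to 2 and 0 to 1. Without both A1d replicate 1 and WT replicate 1, a setting chosen after seeing the data, the counts were 12 for A1d against WT, 22 for QZ1 against WT and 22 by the F test. Library weights, also added then, gave 10, 22 and 15, and 2 for QZ1 against A1d; A1d replicate 1 weighed 0.08 and WT replicate 1 weighed 0.38.

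The replicate block left 0 of the 200 genes called in each comparison and moved the calls over all genes to 420 for A1d against WT, 1966 for QZ1 against WT, 577 for QZ1 against A1d and 1621 by the F test, against 814, 2713, 1136 and 2608 without it. Deviations of same-numbered libraries from their group means correlated at -0.178 to 0.042, and those of differently numbered libraries at -0.05 to 0.211. The 3 deviations in a rootstock sum to 0, so these correlations cannot show whether same-numbered libraries shared a batch or a tree. Depth does not limit the levels of these genes in the 8 libraries of the rule, where the fewest reads were 777. In A1d replicate 1 the fewest were 39. Having only 1 library outside the rule limits what can be said of their evenness.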

Other observations

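Some of the 200 genes were even in all 9 libraries, A1d replicate 1 included. The highest of the 9 was under 1.5 times the lowest in 24 genes and under 2 times in 84, with a median of 2.14. The smallest ratios, named after their values were seen, were those of MD09G1030400 and MD02G1008000. MD09G1030400 had 262, 245 and 249 FPKM in A1d, 275, 256 and 274 FPKM in QZ1, and 295, 257 and 279.5 FPKM in WT, a ratio of 1.20. MD02G1008000 had 444, 505 and 528 FPKM in A1d, 481, 543 and 447 FPKM in QZ1, and 479, 525 and 521 FPKM in WT, a ratio of 1.22. They were chosen as extremes among 200, and no library outside these 9 was used to test them.

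The genes that stood high in WT replicate 1 were both short and long. The 16 genes at least 1 log2 unit above WT replicates 2 and 3 there had 360 to 2978 bases. From the shortest to the longest, the groups of 50 held 6, 0, 6 and 4 of them. In A1d replicate 1, 13 of the 16 lay below the other 8 libraries, beside 126 of the 200 (63.0%). Across the 200 genes the differences of WT replicate 1 and of A1d replicate 1 from the rest of their rootstocks had a Spearman rho of -0.038.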
